A study of Mus musculus with 10 samples.

Results

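Nnt, Entpd4, its copy Entpd4b, Wdfy1, Cyfip2 and Ide are 6 genes reported to carry variants that separate C57BL/6J mice from C57BL/6N mice, or one C57BL/6 colony from another. They were found by Ensembl gene ID among the 47333 genes of the deposited count table, and all 6 were present and passed the filter on low counts. RNA had been sequenced from the right middle lobe of whole lung of 10 untreated mice aged 12 weeks. Bpifb1 KO mice (n = 5, 1 male and 4 females by label) were compared with WT mice (n = 5, 2 males and 3 females), and the labels give C57BL/6J as the strain background of every mouse. Cages held both genotypes. The labels name neither the KO allele, nor whether KO and WT mice were littermates, nor the C57BL/6 stock in which the allele was made. The comparison addresses how loss of Bpifb1 changes lung gene expression. For these 6 genes it also gives how far the mice differed from one another at loci where C57BL/6 stocks are known to differ.

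Inbred C57BL/6 mice have been kept in separate colonies for many generations, and each colony has fixed a small number of its own mutations. Nnt encodes nicotinamide nucleotide transhydrogenase, an enzyme of the inner mitochondrial membrane that uses the proton gradient to make NADPH. C57BL/6J mice carry a deletion of several of its exons. Entpd4 encodes a nucleoside phosphatase of the Golgi and lysosome that splits UDP and related nucleotides. Wdfy1 encodes an early endosomal protein with a FYVE domain and WD repeats, which takes part in signalling from Toll-like receptors through the adaptor TRIF. Cyfip2 encodes a subunit of the WAVE regulatory complex, which links Rac to the growth of branched actin. C57BL/6N mice carry a missense change in it from serine to phenylalanine. Ide encodes a zinc metallopeptidase that degrades insulin and amyloid beta.

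In GRCm38 and GENCODE M21 all 6 are protein-coding genes. Nnt (ENSMUSG00000025453) lies at chr13:119335448-119408997 on the minus strand. Wdfy1 (ENSMUSG00000073643) lies at chr1:79702262-79776143, Cyfip2 (ENSMUSG00000020340) at chr11:46193850-46312859 and Ide (ENSMUSG00000056999) at chr19:37268743-37337852, all on the minus strand. Entpd4 (ENSMUSG00000095463) lies at chr14:69337174-69367270 and Entpd4b (ENSMUSG00000022066) at chr14:69555424-69585520, both on the plus strand, with 188153 bases between them. Values cover all exons of a gene together. The reads behind the table were not used here, so no allele of any mouse was read, and the counts alone do not tell which substrain variant a mouse carried.

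Entpd4 and Entpd4b cannot be separated by their exons. The first 90 bases of the coding sequence of each are shown because they are the same in both genes, with the start codon in capitals.
Entpd4: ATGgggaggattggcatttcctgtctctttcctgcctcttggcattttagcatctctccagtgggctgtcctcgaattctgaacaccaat
Entpd4b: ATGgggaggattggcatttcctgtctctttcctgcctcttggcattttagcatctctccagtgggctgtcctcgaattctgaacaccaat
The coding sequences of 1839 bases were 100% identical over their whole length. All 8206 stretches of 50 bases (the read length) in the transcripts of Entpd4 also occurred in those of Entpd4b. Of 6 Entpd4 transcripts and 5 Entpd4b transcripts, 5 of each had an identical partner in the other gene. A read from one gene therefore matches the other equally well, and the way the authors' software shared such reads sets the counts of both. Their sum does not depend on that split.

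The stretch of the Cyfip2 coding sequence around the serine codon reported to be changed in C57BL/6N is shown as the reference has it, with the codon in capitals, because the reported variant changes that single codon.
Cyfip2: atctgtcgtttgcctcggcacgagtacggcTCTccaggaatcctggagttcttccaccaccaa
No stretch of 50 bases of Cyfip2 or Ide occurred in another gene, and 0.265% of those of Wdfy1 did. Nnt has a second gene model in the annotation, which is absent from the deposited count table. All 3290 of its stretches of 50 bases lie within those of the Nnt model that was counted. Of the 7032 stretches of the counted model, 3301 (46.9%) occur in another gene model.

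Libraries held 21357424 to 28321294 estimated counts each. Bpifb1, the targeted gene, had 0.217 to 1.26 CPM (a gene's counts relative to its library's scaled total) in KO mice and 28.1 to 79.6 CPM in WT mice, so the genotype labels and the target gene went together. KO mouse 5 is labelled female, but its Xist level was 1.78 CPM against 274 to 407 in the other females, and it had 0 counts of Y-linked genes. Results are given with this library, and without it where that ends a call or moves a value by more than 1.5 times. Only the main test, edgeR, was run without it, so calls by DESeq2 were not checked for this. No gene of 14 lists of lung cell markers was at 0 in all mice. The smallest p among them between genotypes was 0.0952 (exact permutation test, two-sided, for alveolar type 2 markers). In these bulk samples, fewer cells of a type and less RNA per cell cannot be told apart.

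Between genotypes, Entpd4 and Entpd4b were the members that separated the mice, with every KO mouse above every WT mouse. Their summed level was 50.5 ± 1.44 CPM in KO mice and 35.7 ± 5.56 CPM in WT mice (mean ± SD, n = 5), a ratio of 1.41. Cyfip2 and Wdfy1 differed by 1.10 and 1.06 times with overlapping ranges. The genotype means of Nnt and Ide were nearly equal, while single mice differed by up to 1.53 and 2.02 times.

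**Figure D1:**
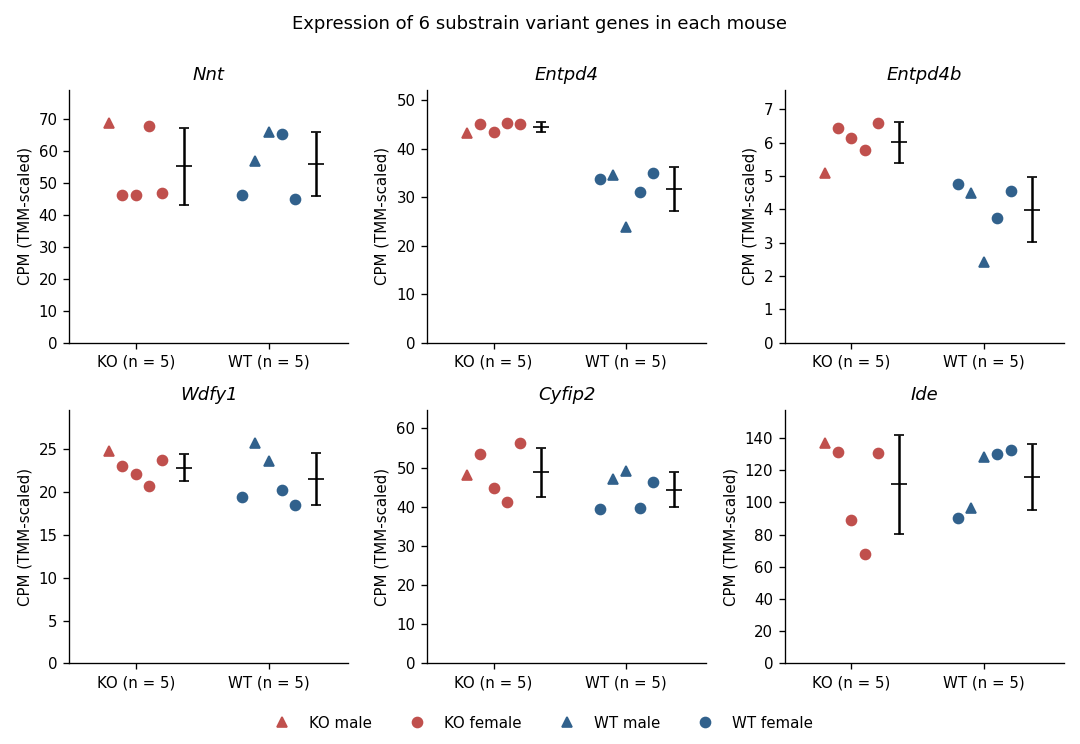
Level of each of the 6 genes in each mouse as CPM scaled by TMM, on axes that start at 0, with KO mice in red, WT mice in blue, males as triangles and females as circles by label, and the mean and SD of each group (n = 5) in black. KO and WT ranges do not overlap for Entpd4 and Entpd4b, and they overlap for the other 4 genes.

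Entpd4 had 43.3, 45.1, 43.5, 45.4 and 45.2 CPM in KO mice 1 to 5. WT mice 1 to 5, by number, had 33.8, 34.7, 23.9, 31.1 and 35.1 CPM. The KO mice were close to one another, and the WT mice were more spread, with WT mouse 3 lowest. Means were 44.5 ± 1.004 CPM in KO mice, against 31.7 ± 4.62 CPM in WT mice (mean ± SD, n = 5). The log2 fold change, KO minus WT with sex as a covariate, was 0.47 (SE 0.08), and the adjusted p was 0.0767 over all genes tested (edgeR quasi-likelihood test, Benjamini-Hochberg), which missed the threshold of 0.05. The exact permutation test over all splits of the 10 mice gave the smallest value it can, p = 0.007937. It takes no account of sex and is not adjusted. Any gene whose KO and WT ranges do not overlap gets this value, as did 1.88% of all genes tested, so it restates the separation and adds nothing to it.

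Entpd4b had 5.08, 6.43, 6.14, 5.77 and 6.60 CPM in KO mice 1 to 5. WT mice 1 to 5 had 4.77, 4.48, 2.41, 3.74 and 4.56 CPM. The pattern was like that of Entpd4, with WT mouse 3 lowest again and no overlap between genotypes. Means were 6.00 ± 0.605 CPM in KO mice, against 3.99 ± 0.965 CPM in WT mice (mean ± SD, n = 5). The edgeR model put the log2 fold change at 0.53 (SE 0.14, adjusted p = 0.143). Entpd4b held 9.15% of the summed count in WT mouse 3 and up to 12.7% in KO mouse 5. Its share was thus small in every mouse, for a gene whose exons are all found in its copy.

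The summed count had 48.4, 51.5, 49.6, 51.2 and 51.8 CPM in KO mice 1 to 5. In WT mice 1 to 5 it had 38.5, 39.2, 26.4, 34.8 and 39.6 CPM. Again each KO mouse lay above each WT mouse, so the separation did not depend on how reads were divided between the copies. Its log2 fold change was 0.47 (SE 0.09), with an adjusted p of 0.0872 by edgeR. DESeq2's Wald test gave adjusted p of 5.3e-04 for the sum, 3.6e-04 for Entpd4 and 0.0453 for Entpd4b, and limma-voom gave 0.0927 for Entpd4 and 0.147 for Entpd4b.

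Of the 18024 genes tested, 1.88% had KO and WT ranges that did not overlap and 0.96% did so with KO higher, and 2 of the 6 members were among the latter. Since these 2 share their reads, they are 1 measurement rather than 2. Without WT mouse 3 the log2 fold change of Entpd4 was 0.40 and passed the threshold (edgeR adjusted p = 0.0326). It also passed without WT mouse 2 (0.52, adjusted p = 0.0351). Over all 18 other settings the log2 fold change of Entpd4 ran from 0.40 to 0.52 and its adjusted p from 3.6e-04 to 0.227, below the threshold in 4.

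Genes beside the 2 copies were examined to see how far along the chromosome the difference reached. The region itself is duplicated in the reference. Entpd4b starts 218250 bases after Entpd4, and the pairs Gm27221 and Gm27176, and Gm31748 and Gm37847, lie at the same offset with identical counts in every mouse. Within 1 Mb of Entpd4, 28 other genes were tested and 0 passed edgeR's adjusted threshold, against 0.0222% of all genes. At an unadjusted p under 0.05 there were 10 of 28 (35.7%), against 17% of all genes. These 10 include Entpd4b and both Gm27221 and Gm27176, so they are not 10 separate measurements. Gm27177 and Gm16867, which share part of their sequence with Entpd4 on the opposite strand, are also among them. Chmp7 (-0.12) and Pdlim2 (-0.14) were lower in KO mice, and the rest of the 10 were higher. DESeq2 passed Gm27177 (adjusted p = 0.00263) and Tnfrsf10b (adjusted p = 0.00463) besides Entpd4b.

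Gm27177 is annotated antisense to the end of Entpd4b. It had 33.3, 33.8, 40.3, 38.6 and 37.9 CPM in KO mice 1 to 5 and 27.6, 27.5, 17.4, 26.1 and 28.5 CPM in WT mice 1 to 5. It too separated the genotypes with WT mouse 3 lowest, and its log2 fold change was 0.49 (SE 0.10, edgeR adjusted p = 0.109). Of its stretches of 50 bases, 23.4% are found in Entpd4 on the opposite strand, as are 25.8% of those of Gm16867. The libraries were stranded, but whether strand was used in counting is not given in the sources used here. If it was not, reads from these shared stretches cannot be told apart. The rest of both genes' sequence is not found in Entpd4 or Entpd4b. Gm16867, annotated as protein-coding, had 13.1 ± 1.48 CPM in KO mice, against 9.06 ± 2.597 CPM in WT mice (mean ± SD, n = 5). Its ranges overlapped (edgeR adjusted p = 0.209).

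Tnfrsf10b, which encodes a death receptor for the ligand TRAIL, lies further along the same chromosome at chr14:69767472-69784411 and was singled out after its values were seen. It had 8.42, 5.95, 5.81, 5.51 and 5.97 CPM in KO mice 1 to 5 and 4.49, 5.05, 4.82, 4.26 and 4.18 CPM in WT mice 1 to 5. Its ranges did not overlap either, and its log2 fold change of 0.53 (SE 0.09) had an edgeR adjusted p of 0.0767. Protein-coding genes nearer to the copies, Slc25a37, Loxl2, R3hcc1 and Chmp7, had overlapping ranges and small differences. Slc25a37, which encodes the mitochondrial iron importer mitoferrin, had 54.5 ± 4.08 CPM in KO mice, against 52.3 ± 6.37 CPM in WT mice (edgeR adjusted p = 0.547). Loxl2, which encodes a lysyl oxidase that cross-links collagen, had 38.8 ± 2.82 and 37.1 ± 3.66 CPM (adjusted p = 0.787). R3hcc1 and Chmp7, which lie between Loxl2 and Tnfrsf10b, were lower in KO mice. Their log2 fold changes were -0.08 and -0.12 (edgeR adjusted p = 0.521 and 0.272). The part of overlapping genes on the opposite strand in the Entpd4 difference was not tested.

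**Figure D2:**
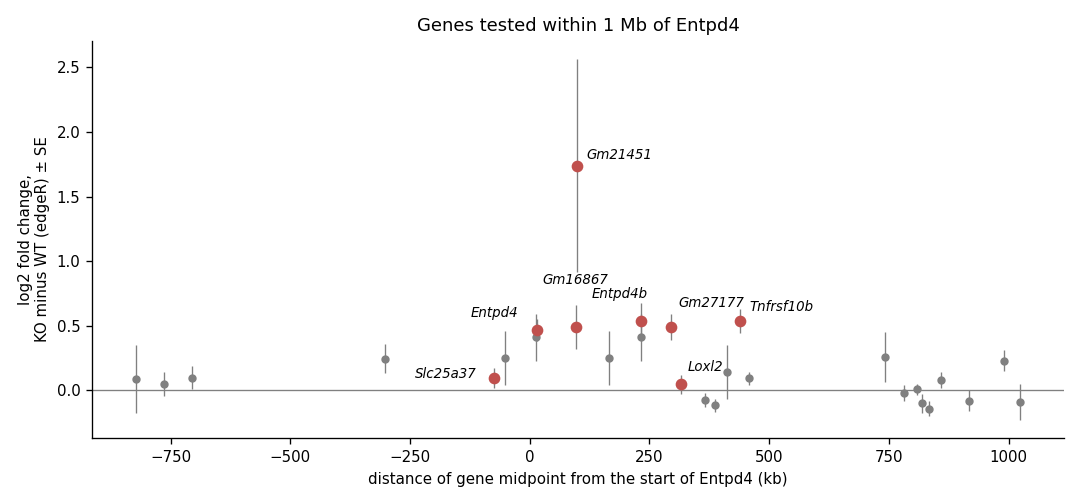
Log2 fold change (KO minus WT, edgeR, ± SE) of Entpd4 and of the 28 other genes tested within 1 Mb, against the distance of each gene's midpoint from the start of Entpd4 in kb, with the genes named in red. Entpd4, Gm16867, Entpd4b, Gm27177 and Tnfrsf10b lie between 0.47 and 0.53, while Slc25a37 and Loxl2 lie at 0.09 and 0.05. Gm21451, a pseudogene between the copies with 0 to 118 counts per mouse, has the widest error.

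Nnt had 68.9, 46.3, 46.3, 68.0 and 46.7 CPM in KO mice 1 to 5. WT mice 1 to 5, by number, had 46.3, 56.8, 66.0, 65.3 and 45.0 CPM. The mice fell on a low and a high side with both genotypes on each. KO mice 2, 3 and 5 and WT mice 1 and 5 lay between 45.0 and 46.7 CPM, while KO mice 1 and 4 and WT mice 3 and 4 lay between 65.3 and 68.9 CPM. WT mouse 2 stood between them at 56.8 CPM. The 95% Poisson interval, which covers counting error and not the spread between mice, was 44.1 to 49.5 CPM for KO mouse 5 and 53.7 to 60.2 CPM for WT mouse 2.

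The largest step between mice next to each other in level was 0.28 on the log2 scale for Nnt, from 46.7 to 56.8 CPM, and 0.48 without WT mouse 2, which lay between the sides. Among the 8536 genes with a mean of at least 20 CPM, 4.58% had a step as large, and 97 had one with 2 or more mice on each side. The median step of those genes was 0.11. A step of this size was therefore uncommon at this level of expression but was not particular to Nnt. The genotype means were 55.2 ± 12.1 CPM in KO mice, against 55.9 ± 10.02 CPM in WT mice (mean ± SD, n = 5), and the log2 fold change was 0.04 (SE 0.14, edgeR adjusted p = 0.917). It was 0.08 without KO mouse 5, and its sign turned with the mouse left out, from -0.06 to 0.18.

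By label, the 3 males had 56.8 to 68.9 CPM of Nnt and the 7 females 45.0 to 68.0 CPM. The males KO mouse 1 and WT mouse 3 were on the high side, as were 2 of the 7 females, KO mouse 4 and WT mouse 4. The third male, WT mouse 2, lay between the sides. The log2 fold change, male minus female, was 0.31 (SE 0.16, edgeR adjusted p = 0.394), and the exact permutation test over all choices of 3 mice gave p = 0.133. Counts over the whole Nnt model cannot tell the intact gene from one that lacks exons, because the reference is itself C57BL/6J.

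Ide had 136.6, 131.2, 89.2, 67.8 and 130.9 CPM in KO mice 1 to 5. WT mice 1 to 5 had 90.2, 96.4, 128.4, 130.0 and 132.7 CPM. Here 6 mice lay together between 128.4 and 136.6 CPM, 3 of each genotype. KO mouse 3 and WT mice 1 and 2 lay between 89.2 and 96.4 CPM, and KO mouse 4 stood below all others. The step from 96.4 to 128.4 CPM was 0.41 on the log2 scale, and 1.69% of genes with a mean of at least 20 CPM had one as large. The 95% Poisson intervals on each side of it were 92.3 to 100.7 CPM for WT mouse 2 and 124 to 133 CPM for WT mouse 3.

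The low mice for Ide were not those for Nnt. Only KO mouse 3 and WT mouse 1 were on the lower side for both genes, and WT mouse 2 and KO mouse 4 were low for Ide and not for Nnt. Genotype means of Ide were 111.1 ± 30.8 CPM in KO mice, against 115.6 ± 20.5 CPM in WT mice (mean ± SD, n = 5). The log2 fold change was -0.04 (SE 0.23, edgeR adjusted p = 0.954), was -0.11 without KO mouse 5, and turned sign when single mice were left out, from -0.17 to 0.08. The SE of Ide was the largest among the 6 genes.

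**Figure D3:**
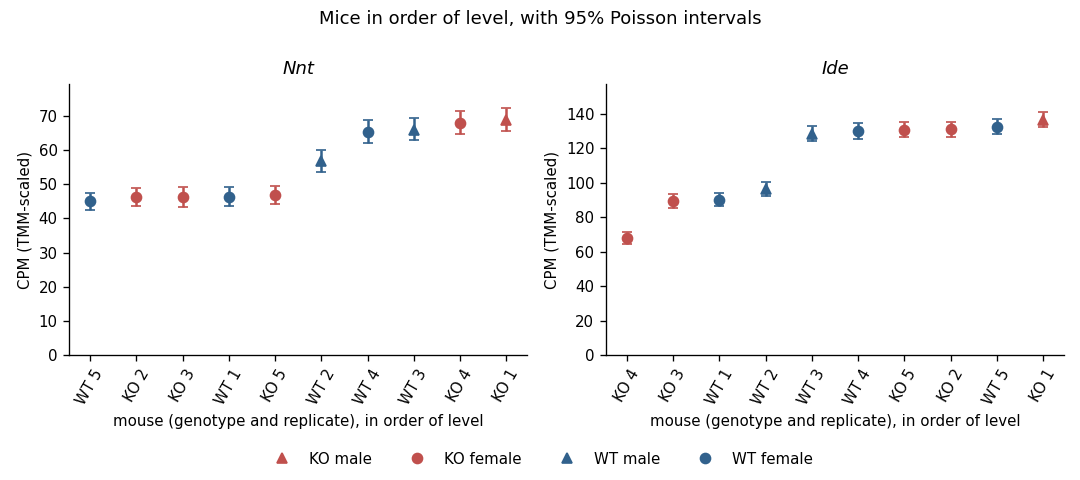
Nnt and Ide in the 10 mice placed in order of level, as CPM scaled by TMM on axes that start at 0, with 95% Poisson intervals for counting error, KO in red, WT in blue, males as triangles and females as circles by label. Nnt steps from 46.7 to 56.8 CPM after 5 mice and Ide from 96.4 to 128.4 CPM after 4 mice, with both genotypes on each side of each step.

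Genes next to Nnt and Ide, and genes that varied in the same way, were listed to describe the pattern. Correlations are of log2 CPM over the same 10 libraries, and they are given as a description. Nnt was most like the gene models Gm6206 (Pearson r = 0.94) and Gm14066 (r = 0.94). Its chromosomal neighbours were less like it. Fgf10, a growth factor of lung branching 543332 bases away, had r = 0.74, and Paip1, a regulator of translation 19603 bases away, had r = 0.62.

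Ide was most like Gm42427, Wasf1 and Ccdc96 (r = 0.90 each). March5, which encodes a mitochondrial ubiquitin ligase 46591 bases away, had r = -0.67. Within 1 Mb, Btaf1, a regulator of the TATA-binding protein that was picked out after its values were seen, had the highest correlation (r = 0.88). Its levels were 74.1, 66.9, 55.5, 48.2 and 68.4 CPM in KO mice 1 to 5 and 45.9, 53.1, 68.5, 61.5 and 61.0 CPM in WT mice 1 to 5. The 4 mice low for Ide were also the 4 lowest for Btaf1, at 45.9 to 55.5 CPM, and the other 6 lay at 61.0 CPM or above.

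Cyfip2 had 48.2, 53.4, 44.8, 41.1 and 56.2 CPM in KO mice 1 to 5. In WT mice 1 to 5 it had 39.4, 47.1, 49.2, 39.7 and 46.4 CPM. The genotypes overlapped through most of the range, and no step between mice was larger than 0.12 on the log2 scale (0.19 without KO mouse 2), which 40.1% of genes at this level matched. Means were 48.8 ± 6.14 CPM in KO mice, against 44.3 ± 4.52 CPM in WT mice (mean ± SD, n = 5), and the log2 fold change was 0.16 (SE 0.09, edgeR adjusted p = 0.377). Without KO mouse 5, the highest, it was 0.11. Lymphocytes express Cyfip2, and the summed T cell markers ran from 46.9 to 60.4 CPM in KO and from 47.3 to 64.0 CPM in WT mice. Summed B cell markers ran more widely, from 120.6 to 257 CPM in KO mice and from 157 to 220 CPM among WT mice. Among KO mice, mouse 4 was lowest and mice 2 and 5 were the highest for both the B cell markers and Cyfip2. KO mice 3 and 5 were nearly equal for the markers (183.1 and 183.7 CPM) and not for Cyfip2. Among WT mice the orders differed, with mouse 5 highest for the markers and below mice 2 and 3 for Cyfip2. The part of these cells in the spread of Cyfip2 was not tested. The genes most like Cyfip2 were Kctd3 (r = 0.93), Mtcp1 (r = 0.92) and Gm17477 (r = 0.91).

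Wdfy1 had 24.8, 23.1, 22.1, 20.7 and 23.7 CPM in KO mice 1 to 5. WT mice 1 to 5, by number, had 19.5, 25.7, 23.7, 20.2 and 18.5 CPM. WT mice held both the highest and the lowest level, and the largest step between mice, 0.10 on the log2 scale (0.16 without KO mouse 3), was matched by 56.8% of genes at this level. Means were 22.9 ± 1.58 CPM in KO mice, against 21.5 ± 3.03 CPM in WT mice (mean ± SD, n = 5). The log2 fold change with sex as a covariate was 0.15 (SE 0.06), with an unadjusted p of 0.0350 and an adjusted p of 0.262 by edgeR, and the exact permutation test, which takes no account of sex, gave p = 0.357.

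By label, Wdfy1 was higher in the 3 males (24.7 ± 1.01 CPM) than in the 7 females (21.1 ± 1.91 CPM, SD). The male range of 23.7 to 25.7 CPM touched the female range of 18.5 to 23.7 CPM at its upper end, where KO mouse 5 lay. The log2 fold change, male minus female, was 0.27 (SE 0.07), with an edgeR adjusted p of 0.0999, a DESeq2 adjusted p of 0.0454 and an exact permutation p of 0.0333. Of the 3 males, KO mouse 1 stood apart from the other KO libraries over all genes (chi-square per degree of freedom of 28.4 to 37.2, against 5.92 to 11.2 among the others). For WT mouse 2 the values were 21.9 to 40.0, which overlapped the 8.94 to 24.9 among the other WT libraries. KO mouse 1 and WT mouse 2 had the 2 highest Wdfy1 levels. Without KO mouse 1 the sex difference was 0.35, and without WT mouse 2 it was 0.22. The part of these libraries in the sex difference was not tested. The genes most like Wdfy1 were Zkscan3 (r = 0.96), Scaf4 (r = 0.95) and Diexf (r = 0.94). Mrpl44, a mitochondrial ribosome gene whose start overlaps that of Wdfy1, had r = 0.11.

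Over the 6 members together, 0 passed edgeR's adjusted threshold between genotypes, and 3 had an unadjusted p under 0.05, which 17% of all genes had. DESeq2 called 2 members, Entpd4 and Entpd4b, against 1.92% of all genes, and limma-voom 0, against 0.0111%. These copies share their reads and are also among the 3, so 1 measurement is counted as 2 here. Both also enter the median that follows. The median log2 fold change was 0.16 over the members and 0.00 over all genes tested, where the median absolute change was 0.10. Between sexes edgeR called 0 members, against 0.583% of all genes, and 1 had an unadjusted p under 0.05, against 15.1%. DESeq2 called 1 member, Wdfy1, against 2.42%. Entpd4 and Entpd4b had sex differences of -0.13 (SE 0.09) and -0.33 (SE 0.16), with edgeR adjusted p of 0.537 and 0.356, and that of Entpd4 was 0.00 without WT mouse 3. That of Entpd4b was -0.14 without WT mouse 3 and -0.53 without WT mouse 2.

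**Figure D4:**
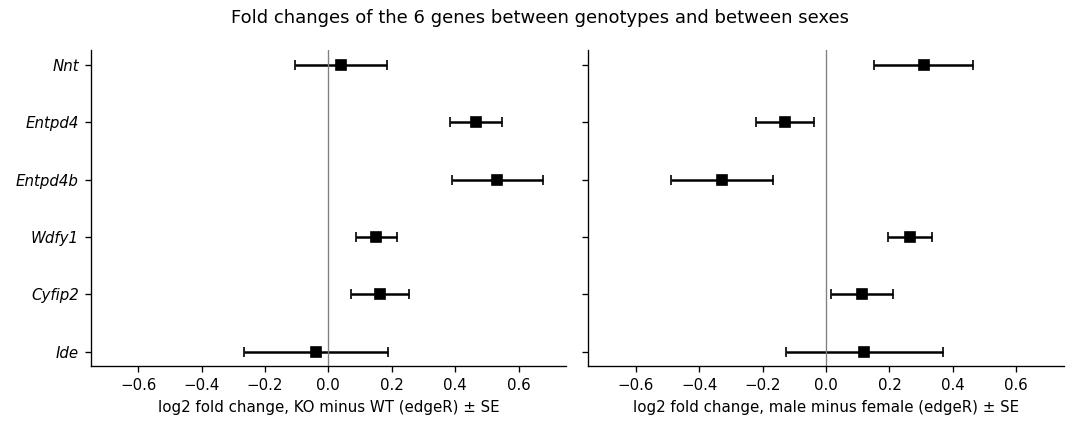
Log2 fold changes of the 6 genes with SE from the edgeR model with genotype and sex, KO minus WT at left and male minus female at right. Entpd4 (0.47) and Entpd4b (0.53) lie farthest from 0 between genotypes, Entpd4b (-0.33) and Nnt (0.31) lie farthest from it between sexes, and Ide has the widest error in both panels.

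Levels were also set per kb of exon, with all annotated exons of a gene joined, models with retained introns included. This joined length was 7037 bases for Nnt, 8074 for Entpd4 and 7103 for Cyfip2. Their longest transcripts had 3464, 3589 and 6659 bases, so the order below depends on the length used. On this scale Ide had the highest level, 15.1 ± 3.30 CPM per kb (SD over 10 mice). Nnt followed with 7.90 ± 1.49, Cyfip2 with 6.55 ± 0.787, Entpd4 with 4.72 ± 0.921, Wdfy1 with 3.42 ± 0.368 and Entpd4b with 0.619 ± 0.162 CPM per kb. Nnt was above Cyfip2 in 7 of 10 mice, so on this scale these neighbours in the order did not differ beyond their spread. Ide was above Nnt in 9 mice and Entpd4 above Wdfy1 in 9, while Cyfip2 was above Entpd4 and Wdfy1 above Entpd4b in all 10. The separate places of Entpd4 and Entpd4b rest on how the software divided their shared reads. Their sum had 5.34 ± 1.08 CPM per kb.

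Other genes reported to differ among C57BL/6 stocks gave no called genotype difference. Of 6 such genes, among them Crb1, Nlrp12, Gabra2, Mmrn1 and Dock2, 5 were tested, 0 were called by edgeR, DESeq2 or limma-voom, and 0 had an unadjusted p under 0.05. Gabra2, a GABA receptor subunit with a C57BL/6J variant that lowers its expression in brain, had 0 counts in every mouse. Some C57BL/6 colonies lack Mmrn1, which encodes multimerin. It was present in all mice, with 27.0 ± 3.37 CPM in the KO group and 25.6 ± 2.998 CPM in the WT group (mean ± SD, n = 5). Dock2, a Rac activator of leukocytes that is altered in some C57BL/6N colonies, had 57.6 ± 6.57 and 55.1 ± 4.91 CPM. Crb1, a cell polarity gene with a C57BL/6N frameshift, and Nlrp12, an inflammasome-family gene with a C57BL/6J missense change, were near 1 CPM in both groups.

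Partners of the 6 genes were examined through 5 further lists. Of 19 genes of mitochondrial NADPH and thiol redox metabolism, listed beside Nnt, 0 passed the adjusted threshold by edgeR, DESeq2 or limma-voom. At an unadjusted p under 0.05, 5 were lower in KO mice and 0 higher, against 8.04% and 8.92% of all genes, and the median log2 fold change was -0.10, against 0.00 for all genes. Glrx5, a glutaredoxin of iron-sulphur cluster assembly, had 28.9 ± 2.64 CPM in KO mice, against 33.6 ± 4.17 CPM in WT mice (log2 difference -0.25, SE 0.08, edgeR adjusted p = 0.195). Gpx4, which reduces lipid peroxides, had 273.7 ± 11.0 and 308.1 ± 28.6 CPM (-0.17, SE 0.07, adjusted p = 0.222). Idh2, the mitochondrial isocitrate dehydrogenase that also makes NADPH, had 138.6 ± 5.32 and 150.5 ± 8.59 CPM (-0.13, SE 0.05, adjusted p = 0.246), while the thioredoxin reductase Txnrd2 had 12.6 ± 1.30 and 13.0 ± 1.31 CPM.

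Of 10 cell-surface and Golgi nucleotidases and nucleotide-sugar carriers, relatives or partners of Entpd4, 0 were called by any of the 3 tests and 0 had an unadjusted p under 0.05. Entpd1, the main ecto-ATPase of endothelium and leukocytes, had 127.3 ± 5.28 CPM in KO mice, against 130.2 ± 15.8 CPM in WT mice. Entpd2 had 9.95 ± 0.554 and 10.9 ± 1.19 CPM, and the transporter gene Slc35b1 39.2 ± 2.86 and 43.7 ± 4.79 CPM. The difference seen for the 2 copies was thus not accompanied by a called difference in other members of the family.

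Of 14 genes of the WAVE complex and its partners, 0 were called by any test, 3 were higher in KO mice at an unadjusted p under 0.05 and 0 lower, and the median was -0.02. Cyfip1, which takes the place of Cyfip2 in the complex, had 154.5 ± 3.34 CPM in KO mice, against 157.8 ± 3.79 CPM in WT mice, and Nckap1, the subunit that binds it, 182.6 ± 6.51 and 186.3 ± 8.54 CPM. Wasf2, the main WAVE protein outside the nervous system, had 241.3 ± 8.74 and 218.9 ± 23.8 CPM (log2 difference 0.17, SE 0.06, edgeR adjusted p = 0.225). Abi2, an adaptor subunit, had 26.7 ± 2.01 and 22.7 ± 2.65 CPM (0.24, SE 0.08, adjusted p = 0.205), and Fmr1, the fragile X protein that binds the CYFIP proteins, 47.8 ± 8.34 and 39.8 ± 5.14 CPM (0.30, SE 0.11, adjusted p = 0.207).

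Of 10 genes of FYVE and WD-repeat proteins and endosomal Toll-like receptor signalling, 0 were called by any test, and at an unadjusted p under 0.05, 2 were higher and 1, Irf3, lower in KO mice. Traf3, an adaptor between TRIF and interferon induction, had 47.4 ± 2.14 CPM in KO mice, against 41.7 ± 3.67 CPM in WT mice (0.20, SE 0.06, edgeR adjusted p = 0.168). Wdfy3, a scaffold of selective autophagy, had 126.4 ± 7.02 and 110.7 ± 14.7 CPM (0.22, SE 0.08, adjusted p = 0.210), and Wdfy2 8.13 ± 0.911 and 7.30 ± 0.666 CPM.

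Of 12 genes tested among relatives of Ide and genes that handle insulin or amyloid peptides, 0 were called by any test, 4 were higher in KO mice at an unadjusted p under 0.05 and 0 lower. Igf1r, the receptor for insulin-like growth factor 1, had 114.4 ± 12.3 CPM in KO mice, against 98.5 ± 11.0 CPM in WT mice (0.24, SE 0.09, edgeR adjusted p = 0.209). Igf2r, which carries the second such factor to lysosomes, had 90.7 ± 8.39 and 78.3 ± 8.13 CPM (0.22, SE 0.08, adjusted p = 0.222). The peptidase gene Mme and the insulin receptor gene Insr were the other 2. These shares of 5 of 19, 3 of 14, 3 of 10 and 4 of 12 stand beside the 17% of all genes that had an unadjusted p under 0.05.

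**Figure D5:**
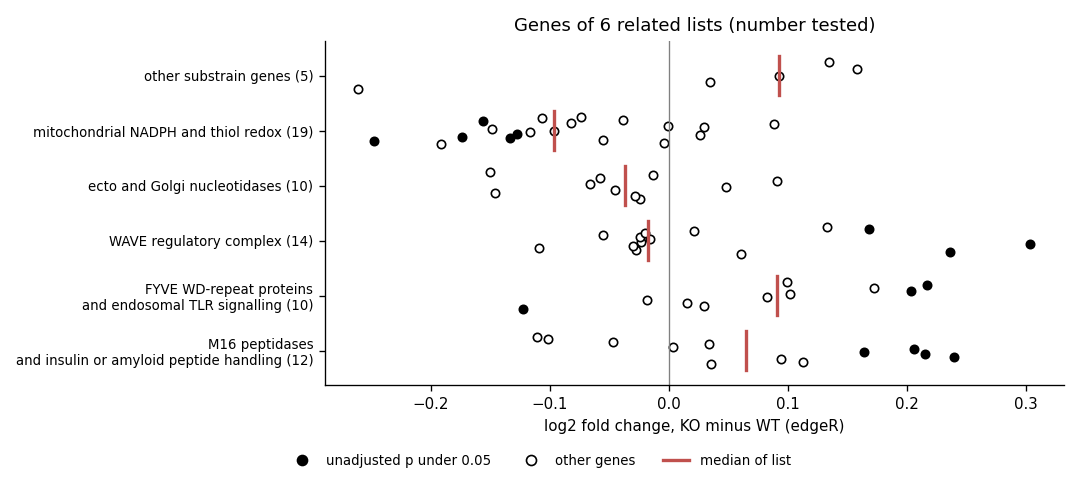
Log2 fold change (KO minus WT, edgeR) of each tested gene in 6 lists of related genes, with filled points for an unadjusted p under 0.05, open points for the rest and a red line at the median of each list. Medians lie between -0.10 and 0.09, and no gene passed the adjusted threshold.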

How the data were processed

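Whole-lung RNA from 5 KO and 5 WT mice was sequenced as single reads of 50 bases from KAPA stranded mRNA libraries, per the labels' protocols. The authors deposited 1 table of estimated counts per gene, not scaled between samples. The submitters' processing notes name STAR 2.6.0 and Salmon 0.9.1, without their roles. The annotation, strand setting and filters are not given in the sources used here. Identifiers were matched to GENCODE M21 (GRCm38), 47281 of 47333, and the 52 without a match held 0.00668% of counts. Values off a whole number by over 0.01 made up 30.1% of the non-zero ones.

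Counts were rounded. Totals were 21357424 to 28321294 per mouse, and 3 counts equalled 0.106 to 0.14 CPM. Genes were filtered with filterByExpr by genotype (minimum count 10, minimum total 15), leaving 18024. edgeR 4.0.16 (R 4.3.3, TMM, robust quasi-likelihood test, genotype and sex as covariates) was the main test, with Benjamini-Hochberg adjustment and a threshold of 0.05. SEs were derived from the fold change and the F statistic. Exact permutation tests on single values went through all splits of the mice by genotype (smallest p 0.007937) or by sex (smallest p 0.008333), and all tests were two-sided. Log2 CPM for steps and correlations used a prior count of 2. Poisson intervals are exact. Shared sequence was counted as identical stretches of 50 bases in GENCODE M21 transcripts, from which the printed sequences come. Genes named beside the 6 members were the 3 with the highest correlation, the nearest tested gene on each side and, in each list, the 2 with the smallest p for genotype plus a fixed set, unless said otherwise. Alternatives were DESeq2 size factors, no filter, females alone, a fit without the second covariate, limma-voom (3.58.1), DESeq2's Wald test (1.42.0), no robust dispersion, and each mouse left out. Females without KO mouse 5 were added after seeing the data. The members and lists were chosen with earlier results of these data known. The edgeR script was tested on simulated counts. Replicates are separate mice by label, numbered in the order of the samples. No pair of libraries within a genotype agreed within sampling noise, with chi-square per degree of freedom of at least 5.92. Nrdc, a gene of the Ide list, matched no symbol and was not analysed here. Some genes that the rule for named genes picks are not reported here.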

Additional observations from a re-analysis of the deposited data

How the results depend on the processing

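The count of genes called between genotypes was 4. It was 50 with no filter, 346 by DESeq2, 2 by limma-voom and 2 without the 3 males and KO mouse 5. With 1 mouse left out it was 2 to 18, the highest without WT mouse 3, and it was 2 without KO mouse 5. Between sexes it was 105, and 197 with no filter, 41 without the genotype covariate, 436 by DESeq2, and 0 to 195 with 1 mouse left out, lowest without KO mouse 1, the only KO male (1919 genes at an unadjusted p under 0.05), with 46 without KO mouse 2, 43 without WT mouse 2 and 195 without WT mouse 4. The log2 fold change of Entpd4 kept its sign in all settings run and passed the threshold with no filter (0.46, adjusted p = 0.0191), by DESeq2 (0.47), and without WT mouse 2 or WT mouse 3. It ran from 0.40 to 0.52 with 1 mouse left out. Entpd4b passed by DESeq2 (0.54) and ran from 0.44 to 0.63. The sum of both passed with no filter (0.47), in females alone (0.44, but 0.43 with adjusted p = 0.157 once KO mouse 5 was also left out), by DESeq2 (0.48) and without WT mouse 2 or WT mouse 3, and ran from 0.41 to 0.53. Without KO mouse 5, Entpd4 was 0.47 (adjusted p = 0.172). The difference for Nnt turned negative without the sex covariate (-0.016) and in females alone (-0.010), with a range of -0.062 to 0.18 with 1 mouse left out. That of Ide ran from -0.17 to 0.083 and was -0.29 without the males and KO mouse 5. The sex difference ran from -0.24 to 0.0025 for Entpd4 and from -0.065 to 0.26 for Ide, and that of Wdfy1 passed by DESeq2 (0.27). The largest step of Entpd4b, 0.61, was 0.26 without WT mouse 3 and ran from 0.26 to 0.87. The cause of these changes was not tested. Wdfy1 and Cyfip2 kept the sign of their genotype difference, and stayed short of the threshold, in all settings run. No paired analysis was run. The labels give no replicate numbers, and those used here follow the order of the samples. The sample values used here hold no cage or litter for each mouse, so differences between cages, which held both genotypes, were not modelled. With 5 mice a group and 1 KO male, an interaction of genotype and sex was not tested.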
